A study of Mus musculus with 10 samples.

Results

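The comparison was between tumour-infiltrating CD8 T cells that carried CA-RIT NFAT1 and cells that carried the eGFP control vector. It used 5 of the series' 10 libraries, namely CA-RIT NFAT1 2, 4 and 9 and eGFP 3 and 6, chosen by a rule that left out CA-RIT NFAT1 10, which held almost no T cell transcripts, and eGFP 7, which held 51112 estimated reads. All libraries came from P1A T cell receptor transgenic CD8 T cells activated for 24 h, transduced with a retrovirus for eGFP alone, CA-RIT NFAT1 or NFAT5, and given 24 h later to Rag1-/- B10D2 mice bearing P511 mastocytomas. The cells were sorted from the tumours 7 days after transfer. The labels give the strain as C57BL/6. They do not say whether each library was 1 mouse or a pool, so the tests measure only the spread between these libraries, which may be technical. The recipients lack their own T and B cells because of the Rag1 deletion, and the retroviral genes entered cells that had already been activated in culture. The control vector and both NFAT groups shared the activation time and the day after transfer. Whether they also shared batches of sorting or library preparation was not tested.

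NFAT1, encoded by Nfatc2, is a calcium-regulated transcription factor that enters the nucleus once calcineurin removes its phosphates. With its partners Fos and Jun, which form AP-1, it drives cytokine genes in activated T cells, and without them it is known to favour genes of anergy and exhaustion, such as inhibitory receptors and the Nr4a factors. CA-RIT NFAT1 is a form made constitutively active and altered so that it pairs poorly with AP-1, and the question was how its presence changes the transcripts of CD8 T cells in a tumour.

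The 5 libraries held 24.8 to 36.6 M estimated reads. Summed markers of T cells lay at 28369 to 33451 CPM (counts scaled to 1 M reads on genes) with CA-RIT NFAT1 and at 33062 and 41392 CPM in eGFP 6 and eGFP 3, and all 10 T cell markers were detected in each library. eGFP 3 stood apart: of 9213 genes with a median of at least 5 CPM, 444 (4.82%) had 0 reads there, against at most 4 in the other libraries compared. Long transcripts were also low in eGFP 3, so fold changes and list medians are given with both controls and, for most, with eGFP 6 alone. Markers of other cells were present too: summed markers of dendritic cells, which include the MHC class II genes, reached 1396 CPM in eGFP 3 against 253 CPM in eGFP 6 and 187 to 329 CPM with CA-RIT NFAT1. The mast cell and P511 markers summed to 85.6 to 223 CPM with CA-RIT NFAT1 and to 60.6 and 263 CPM in the controls, with Fcer1a, Tpsab1 and Tpsb2 at 0 in all 5. With both controls and with eGFP 6 alone, the median log2 fold change was 0.31 and 1.29 over 8 tested mast cell and P511 markers and -2.42 and 0.10 over 8 dendritic cell markers. Whether these other cells take part in any result below was not tested. In bulk RNA, fewer cells of a type and less RNA per cell cannot be told apart.

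No gene passed the test between CA-RIT NFAT1 and eGFP. The edgeR quasi-likelihood test with Benjamini-Hochberg adjustment called 0 of 14483 genes (0%) at 0.05, while 475 higher (3.28%) and 457 lower genes (3.16%) had an unadjusted p under 0.05. DESeq2 called 82 of 16220 genes higher (0.506%) and 17 lower (0.105%). Of those 82 genes, 52 had no read in either control. limma voom called 0 genes. Without eGFP 6, so against eGFP 3 alone, edgeR called 2553 genes higher and 858 lower, and without eGFP 3 it called 0. By levels alone, 9312 genes had a mean of at least 5 CPM over the 5 libraries. In 1318 of them (14.2%) every CA-RIT NFAT1 library lay above both controls, and in 666 (7.15%) every one lay below. With the added condition of at least 1.5-fold beyond eGFP 6, 167 genes (1.79%) remained above and 43 (0.462%) below. These shares are the background for each list of genes. For 3 libraries against 2, the 10 possible splits allow no two-sided exact permutation p below 0.2. Separation of a single gene is therefore a description of levels and not evidence of a difference.

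The list medians divided into those that kept their sign with either control and those that did not. Over all genes the median log2 fold change of CA-RIT NFAT1 against eGFP was 0.10 with both controls and 0.04 with eGFP 6 alone. Cell cycle genes, cholesterol and fatty acid synthesis genes, and the calcineurin-NFAT targets had medians above that of all genes in both settings. Glycolysis and hypoxia genes, granzymes and cytotoxic genes, inhibitory receptors and cytokines had negative medians below it in both. So did the osmotic stress, interferon response, survival and death, cytokine receptor, homing, and unfolded protein lists, so such medians were common among the lists. The costimulatory, AP-1, T cell receptor, NF-kB and mitochondrial genome lists changed sign between the settings, as did nuclear genes of the respiratory chain. The latter, whose transcripts are short, had a median of -0.47 with both controls and 0.02 with eGFP 6 alone.

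**Figure D1:**
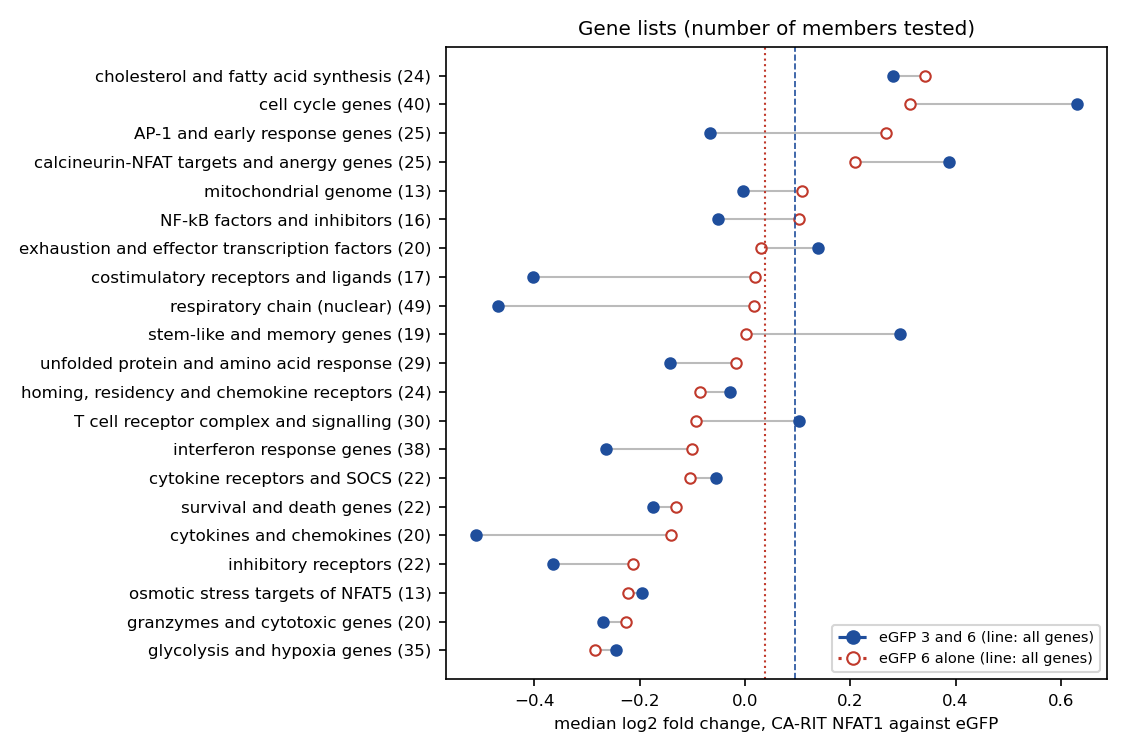
Median log2 fold change of CA-RIT NFAT1 against eGFP for each of 21 gene lists (horizontal axis), with both controls (filled) and with eGFP 6 alone (open); vertical lines mark the medians of all genes, 0.10 and 0.04. Cell cycle genes lie at 0.63 and 0.31, and glycolysis and hypoxia genes at -0.24 and -0.28.

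Transcript length moved with the fold change. From the shortest to the longest of 5 equal groups of genes by effective length, with medians of 498 and 3852 bases, the median log2 fold change went from -0.34 to 0.58 with both controls. With eGFP 6 alone it went from -0.02 to 0.19. Medians after removal of a smooth trend with length are therefore also given below for the cytotoxic, calcineurin-NFAT, cell cycle and glycolysis lists. With both controls and with eGFP 6 alone, removal gave -0.11 and 0.10 for the respiratory chain list. It gave -0.31 and -0.07 for cytokines and chemokines, and 0.16 and 0.33 for cholesterol and fatty acid synthesis. Over all genes it gave 0.11 and 0.07.

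**Figure D2:**
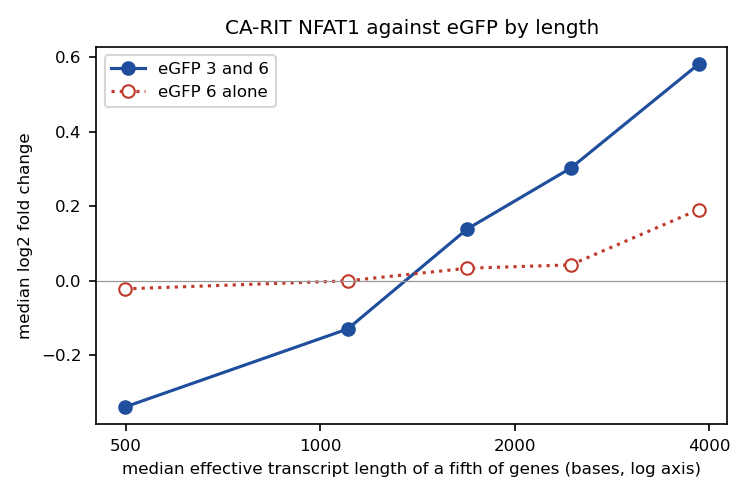
Median log2 fold change of CA-RIT NFAT1 against eGFP (vertical axis) for 5 equal groups of genes by effective transcript length in bases (horizontal log axis), with both controls (filled) or eGFP 6 alone (open). The slope is steeper with both controls, from -0.34 to 0.58, than with eGFP 6 alone, from -0.02 to 0.19.

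The introduced factor was first checked by Nfatc2 itself (chromosome 2, 168476410 to 168601657, GRCm38). Its level was 88.8, 63.5 and 30.0 CPM in CA-RIT NFAT1 2, 4 and 9, and 4.00 and 47.3 CPM in eGFP 3 and 6, the order used for all values below. CA-RIT NFAT1 9 lay under eGFP 6, so the groups overlapped. The means were 60.7 ± 29.5 (SD, n = 3) and 25.7 ± 30.6 CPM (SD, n = 2), and permuting the 5 libraries exactly, two-sided, on log2(CPM + 1), gave p = 0.4, where 10 splits allow no p below 0.2. The log2 fold change was 1.16 ± 0.86 (SE) with both controls and 0.31 with eGFP 6 alone. The NFAT5 libraries, which carry no introduced NFAT1, held 70.0, 42.3 and 36.6 CPM. The transcript sums therefore do not separate the libraries labelled CA-RIT NFAT1 from the others. How much of the introduced sequence the transcript reference captures was not tested.

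Split by transcript, Nfatc2-202 gave 45.2, 26.4 and 21.9 CPM with CA-RIT NFAT1 against 0 and 14.1 CPM in the controls, and these groups did not overlap. The NFAT5 libraries held 21.7, 8.16 and 19.4 CPM of it, so 2 of them also lay above both controls. Nfatc2-201, the shorter coding form, gave 8.41, 8.48 and 1.26 CPM against 0 and 1.02 CPM. Nfatc2-204, another coding form, gave 35.0, 26.9 and 5.49 CPM against 1.24 and 31.1 CPM. Nfat5, the gene introduced in the remaining group, stood at 10.7, 4.70 and 3.01 CPM with CA-RIT NFAT1 and at 1.12 and 6.88 CPM in the controls, which overlapped.

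**Figure D3:**
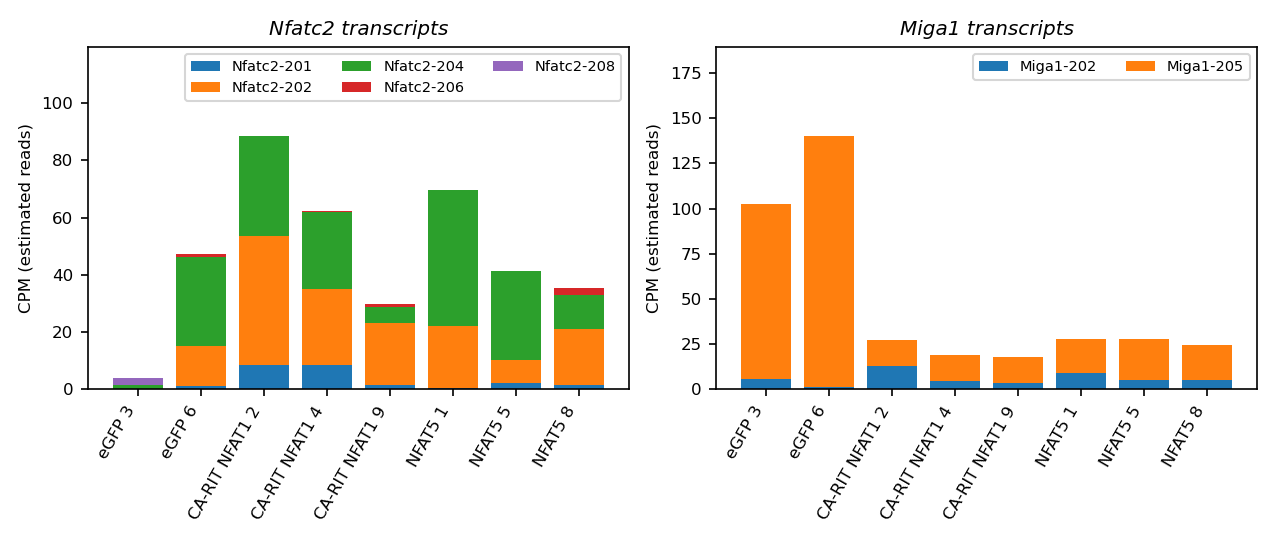
Level in CPM on the transcripts of Nfatc2 (left) and Miga1 (right) in each eGFP, CA-RIT NFAT1 and NFAT5 library, stacked by transcript and showing those that reach 2 in at least 1 library. Nfatc2 totals overlap between groups, while Miga1-205 stands at 96.9 and 139 in the eGFP libraries and at 14.1 to 14.3 with CA-RIT NFAT1.

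Miga1 had the smallest p of all genes. It encodes mitoguardin 1, an outer mitochondrial membrane protein of mitochondrial fusion (chromosome 3, 152273849 to 152340407). Its level was 29.6, 20.2 and 17.6 CPM with CA-RIT NFAT1 and 102 and 141 CPM in eGFP 3 and 6. Both controls lay far above every CA-RIT NFAT1 library. The log2 fold change was -2.56 ± 0.28 (SE), with an edgeR adjusted p of 0.181 and a DESeq2 adjusted p of 5.86e-13, and it was -2.70 with eGFP 6 alone. The difference sat on 1 transcript, Miga1-205, at 14.2, 14.3 and 14.1 CPM against 96.9 and 139 CPM. Miga1-202 did not follow it, at 12.9, 4.67 and 3.45 CPM against 5.50 and 1.38 CPM. The NFAT5 libraries held 19.1, 23.0 and 19.5 CPM of Miga1-205, so it was the control libraries that stood apart.

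The leading higher genes were taken in order of p among coding genes separated from both controls. Nr4a3, an orphan nuclear receptor induced by T cell receptor signals and tied to exhaustion (chromosome 4, 48045153 to 48086447), stood at 33.9, 45.4 and 39.0 CPM against 8.68 and 7.73 CPM. Both controls were alike and every CA-RIT NFAT1 library was several times higher. Its log2 fold change was 2.14 ± 0.41 (SE) with both controls and 2.32 with eGFP 6 alone, with an edgeR adjusted p of 0.680, the value of all the leading genes other than Miga1, and a DESeq2 adjusted p of 0.000113.

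Pou2f1, the octamer-binding factor Oct1, stood at 14.0, 14.4 and 7.30 CPM against 1.40 and 1.25 CPM, a log2 fold change of 3.03 ± 0.63 (SE), or 3.20 with eGFP 6 alone. Mast2, a microtubule-associated kinase, stood at 50.6, 59.2 and 43.5 CPM against 5.61 and 17.3 CPM. Sppl3, a protease of the Golgi membrane, stood at 43.0, 73.7 and 63.5 CPM against 17.5 and 25.8 CPM. In each of these the groups were apart, which the choice of genes requires. Agap3, an activator of Arf GTPases, had a log2 fold change of 1.08 ± 0.27 (SE), and 1.06 with eGFP 6 alone.

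Several of the leading genes had no read in either control. Gm156, a gene without an established name (chromosome 6, 129766568 to 129784270), stood at 38.8, 11.0 and 24.3 CPM with CA-RIT NFAT1, at least 504-fold above 3 reads over both controls. Lyz2, the lysozyme of macrophages and neutrophils, stood at 12.4, 12.2 and 53.7 CPM, at least 533-fold higher. It is a marker of other cells, and its near copy Lyz1 can share reads with it. The 14 macrophage and monocyte markers had a median log2 fold change of 0.19 with both controls, 9 of them positive, and of 2.71 with eGFP 6 alone, 13 of them positive. Their sum was 193 to 468 CPM with CA-RIT NFAT1 and 225 and 226 CPM in the controls, and in eGFP 6 it came mostly from Itgam at 110 CPM and Cd68 at 108 CPM. The part of macrophages in the Lyz2 difference was not tested. Ly6k, of the Ly6 surface protein family, stood at 0.337, 8.01 and 18.7 CPM, with nearly all its reads in 2 of the 3 libraries.

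Among the leading lower genes, Pnrc2, a factor of mRNA decay and nuclear receptor activity, stood at 49.3, 41.7 and 42.0 CPM against 78.7 and 80.7 CPM. Gem, a small GTPase induced by mitogens, stood at 92.1, 80.8 and 57.0 CPM against 214 and 149 CPM, a log2 fold change of -1.38 ± 0.32 (SE), or -1.01 with eGFP 6 alone. Pagr1a, a subunit of a histone methyltransferase complex, stood at 16.9, 18.3 and 15.5 CPM against 36.3 and 36.8 CPM. In all 3 the CA-RIT NFAT1 libraries lay below both controls, which the choice of genes requires, with a wider spread among them for Gem.

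Esm1, the secreted proteoglycan endocan, stood at 19.5, 18.9 and 6.06 CPM against 48.4 and 45.7 CPM. Dglucy, the mitochondrial D-glutamate cyclase, stood at 29.2, 17.4 and 22.8 CPM against 49.4 and 50.9 CPM. For these the controls were close to each other, and all 3 CA-RIT NFAT1 libraries lay below them, which the choice of genes requires. The other leading lower genes, Lsr, Grhpr and Hemk1, were 28.3 to 75.3 CPM in eGFP 3 and 7.89 to 49.4 CPM in eGFP 6, and their log2 fold changes of -2.68 to -1.24 came to -1.56 to -0.80 with eGFP 6 alone.

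**Figure D4:**
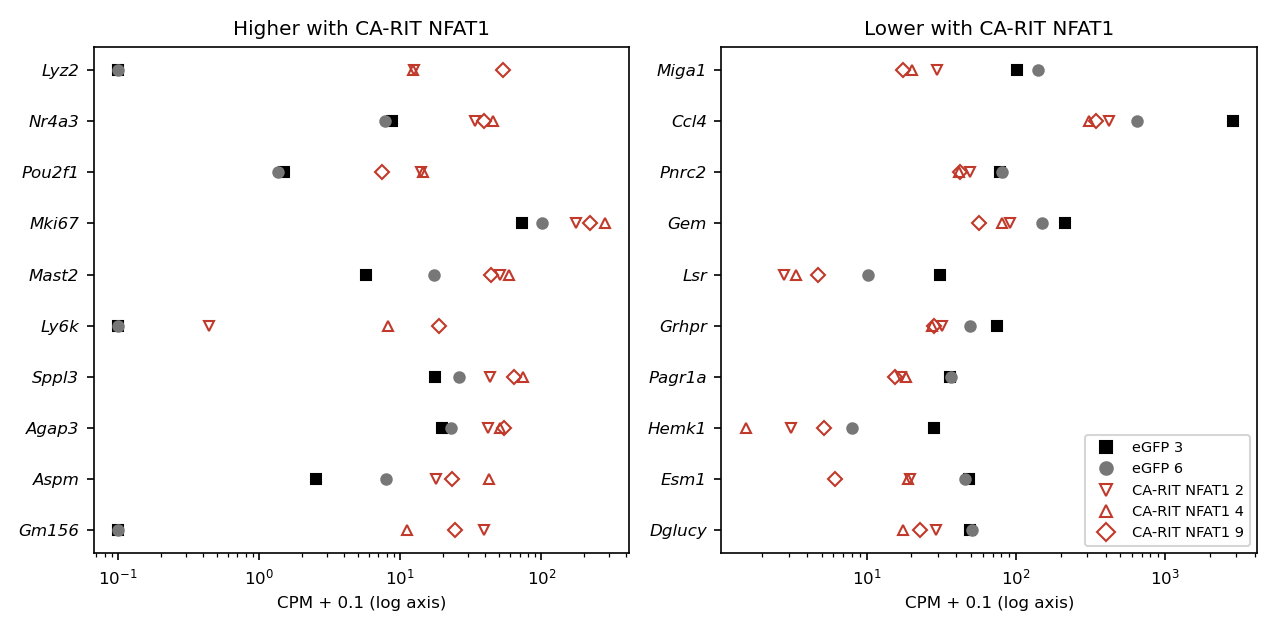
Level of the 10 leading higher (left) and 10 leading lower coding genes (right) in each library, as CPM + 0.1 on a log axis, with eGFP in black and grey and CA-RIT NFAT1 in red. In each row the 3 CA-RIT NFAT1 libraries lie on one side of both controls, which the choice of genes requires; Nr4a3 lies at 33.9 to 45.4 CPM against 7.73 and 8.68 CPM.

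Inhibitory receptors were not apart between the groups. Of 20 receptors with at least 5 CPM, 0 lay above both controls in every library and 0 lay below, against 14.2% and 7.15% of all genes. Over 22 tested members the median log2 fold change was -0.36 with both controls and -0.21 with eGFP 6 alone. Pdcd1, which encodes PD-1, stood at 886, 318 and 730 CPM with CA-RIT NFAT1 and at 773 and 671 CPM in the controls. The control values lay inside the range of the CA-RIT NFAT1 libraries. Its log2 fold change was -0.30 ± 0.64 (SE), and 0.01 without CA-RIT NFAT1 4. Havcr2, which encodes TIM-3, stood at 291, 169 and 215 CPM against 261 and 297 CPM.

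Lag3, an MHC class II receptor, stood at 155, 47.4 and 41.8 CPM against 24.8 and 105 CPM. Tigit, a receptor for CD155, stood at 119, 64.4 and 82.3 CPM against 95.2 and 68.5 CPM. Ctla4, the rival of Cd28 for its ligands, stood at 151, 102 and 144 CPM against 291 and 116 CPM. All of these overlapped, and with eGFP 6 alone the log2 fold change was -0.43 for Lag3, 0.32 for Tigit and 0.14 for Ctla4, each opposite in sign to its value with both controls. Entpd1, the ectonucleotidase CD39, had a log2 fold change of -0.62 ± 0.37 (SE), or -0.42 with eGFP 6 alone. Klrg1, a receptor of terminal effector cells, had -0.89 ± 0.46 (SE), or -0.44 with eGFP 6 alone. Of 13 costimulatory receptors and ligands, 1 (Cd28) lay above both controls and 1 (Tnfrsf9) below, against 14.2% and 7.15% of all genes. Tnfrsf9, which encodes 4-1BB, had a log2 fold change of -1.23 ± 0.55 (SE), or -0.36 with eGFP 6 alone.

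Among 18 factors of exhaustion and effector fate, 3 lay above both controls (Nr4a3, Ikzf2 and Irf4) and 2 below (Id2 and Prdm1), shares near those of all genes. Ikzf2, the Helios factor, stood at 24.8, 11.8 and 25.3 CPM against 3.53 and 6.27 CPM, a log2 fold change of 1.96 ± 0.82 (SE), or 1.66 with eGFP 6 alone. Id2, an inhibitor of E proteins kept high in effector cells, stood at 406, 477 and 400 CPM against 961 and 635 CPM, a log2 fold change of -1.04 ± 0.27 (SE), or -0.61 with eGFP 6 alone. Both were apart from the controls in every library and had an edgeR adjusted p of 0.680. Nr4a1, the sister gene of Nr4a3, stood at 263, 461 and 185 CPM against 214 and 116 CPM, so CA-RIT NFAT1 9 lay below eGFP 3. With eGFP 6 alone its log2 fold change was 1.36, against 0.74 ± 0.45 (SE) with both.

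Tox, a factor required for exhausted cells to persist, stood at 329, 108 and 144 CPM against 99.4 and 194 CPM, which overlapped. Its log2 fold change was 0.28 ± 0.55 (SE), and -0.07 with eGFP 6 alone. Eomes, a T-box factor, overlapped as well, with 0.13 ± 0.31 (SE) and -0.23.

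Stem-like and memory genes had a median of 0.29 over 19 members with both controls and of 0.00 with eGFP 6 alone. Of 19, 1 (Foxp1) lay above both controls and 0 below, against 14.2% and 7.15% of all genes. Tcf7, which encodes the TCF-1 factor of stem-like cells, stood at 165, 72.2 and 157 CPM against 0.219 and 74.7 CPM. It was near 0 in eGFP 3, and its log2 fold change was 1.74 ± 1.45 (SE) with both controls and 0.76 with eGFP 6 alone. Slamf6, a surface marker of the same cells, stood at 301, 182 and 266 CPM against 132 and 187 CPM.

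Several cytotoxic genes lay below the controls. Of 17 with at least 5 CPM, 5 lay below both controls in every library (Gzma, Gzmb, Nkg7, Fasl and Serpinb6b) and 0 above, against 7.15% and 14.2% of all genes. None of the 5 was at least 1.5-fold below eGFP 6 in every library, and the gap was narrow for Fasl, at no more than 202 CPM against 203 CPM in eGFP 6, and for Serpinb6b, at no more than 357 CPM against 362 CPM in eGFP 3. The list median was -0.27 over 20 members and -0.23 with eGFP 6 alone, and -0.18 with eGFP 6 alone after removal of the length trend. Gzmb, the granzyme B protease (chromosome 14, 56258838 to 56262260), stood at 3558, 2619 and 2144 CPM against 11469 and 4770 CPM. The highest CA-RIT NFAT1 library was below the lower control. Its log2 fold change was -1.71 ± 0.42 (SE), or -0.83 with eGFP 6 alone. Gzma, granzyme A, stood at 356, 1028 and 267 CPM against 2142 and 1200 CPM, and CA-RIT NFAT1 4 came near to eGFP 6. Prf1, the pore-forming perforin, stood at 2099, 791 and 845 CPM against 2538 and 2060 CPM, with CA-RIT NFAT1 2 level with eGFP 6. Nkg7, a granule protein, lay just below eGFP 6, with -0.98 ± 0.32 (SE), and -0.29 with eGFP 6 alone. Among inhibitors of proteases, Serpinb6b was at -0.24 ± 0.20 (SE), or -0.16 with eGFP 6 alone.

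Some cytokines and chemokines lay above the controls and others below. Of 13 with at least 5 CPM, 2 lay above both controls (Tnf and Tgfb1), a share near the 14.2% of all genes. Below both lay 4 (Ccl3, Ccl4, Il10 and Flt3l), against 7.15% of all genes. Tnf and Ccl4 were at least 1.5-fold beyond eGFP 6 in every library, against 1.79% of all genes above and 0.462% below. The list median over 20 tested members was -0.51 with both controls and -0.14 with eGFP 6 alone. The promoters of Tnf, Ccl3 and Gzmb are shown because the first was higher, the others lower, and they differ in these motifs. They were chosen after the motif matches in the promoters of 17 genes had been seen, and another motif, that of the cAMP response element, was looked for and dropped. Each is the 250 bases before the annotated start, from RefSeq on GRCm38.p6, on the minus strand, at chr17:35202008-35202257, chr11:83649379-83649628 and chr14:56262335-56262584. Capitals mark the NFAT core GGAAA, here read as TTTCC, or the AP-1 motif TGANTCA, both searched on either strand.
Tnf: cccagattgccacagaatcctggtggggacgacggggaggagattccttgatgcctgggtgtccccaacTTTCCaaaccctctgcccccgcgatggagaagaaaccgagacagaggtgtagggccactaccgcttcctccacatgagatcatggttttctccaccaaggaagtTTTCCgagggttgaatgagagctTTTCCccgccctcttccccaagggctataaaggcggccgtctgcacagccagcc
Ccl3: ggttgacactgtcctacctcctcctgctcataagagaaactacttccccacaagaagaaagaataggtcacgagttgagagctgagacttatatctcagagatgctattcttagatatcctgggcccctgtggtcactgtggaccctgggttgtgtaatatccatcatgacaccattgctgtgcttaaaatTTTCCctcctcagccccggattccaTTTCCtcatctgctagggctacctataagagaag
Gzmb: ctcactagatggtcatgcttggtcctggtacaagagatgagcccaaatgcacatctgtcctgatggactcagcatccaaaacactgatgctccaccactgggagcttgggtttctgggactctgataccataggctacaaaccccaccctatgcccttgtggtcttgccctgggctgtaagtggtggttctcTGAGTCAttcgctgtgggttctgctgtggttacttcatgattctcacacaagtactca
The Tnf window, a known target of NFAT in T cells, held 3 NFAT cores, at 177, 73 and 50 bases before the start, and no AP-1 motif. The Ccl3 window held 2 cores, at 55 and 30 bases, and no AP-1 motif, and the Gzmb window held 1 AP-1 motif at 52 bases and no core. Of 27025 promoters of the same length, 55.6% held an NFAT core and 6.87% an AP-1 motif. Among the leading genes, 2 of 8 higher genes with a promoter in the table held a core and 0 an AP-1 motif, against 4 and 1 of 7 lower genes. A match is a description of letters, not of binding.

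Tnf, the inflammatory cytokine, stood at 27.5, 132 and 37.7 CPM with CA-RIT NFAT1 and at 20.7 and 15.4 CPM in the controls. The groups were apart, and CA-RIT NFAT1 4 was the highest. The log2 fold change was 1.75 ± 0.75 (SE), and 2.07 with eGFP 6 alone. Ccl3 and Ccl4, neighbouring genes of inflammatory chemokines, were lower in every CA-RIT NFAT1 library. Ccl3 stood at 271, 109 and 223 CPM against 1573 and 404 CPM, a log2 fold change of -2.47 ± 0.64 (SE), or -1.06 with eGFP 6 alone. Ccl4 stood at 423, 312 and 348 CPM against 2845 and 652 CPM, with -2.44 ± 0.53 (SE) and -0.90. The NFAT5 libraries lay on the same side of both controls for all of these genes. In NFAT5 1, 5 and 8 Tnf stood at 60.2, 151 and 162 CPM. Ccl3 stood there at 182, 122 and 64.0 CPM, and Ccl4 at 288, 275 and 193 CPM.

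Il10, an anti-inflammatory cytokine, stood at 23.5, 12.5 and 8.47 CPM against 37.6 and 29.8 CPM, with -1.33 ± 0.57 (SE), or -1.07 with eGFP 6 alone. Ifng, the effector cytokine interferon gamma, stood at 388, 306 and 349 CPM against 811 and 384 CPM, so only eGFP 3 was apart. Xcl1, a chemokine for cross-presenting dendritic cells, stood at 56.4, 8.74 and 74.2 CPM against 30.8 and 6.43 CPM, which overlapped.

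Calcineurin-NFAT targets and anergy genes had a median of 0.39 over 25 members with both controls, 0.21 with eGFP 6 alone and 0.09 with eGFP 6 alone after removal of the length trend, against 0.07 for all genes in that last setting. Of 24 with at least 5 CPM, 6 lay above both controls (Egr2, Dgka, Sla, Cblb and Ppp3r1 among them) and 0 below, against 14.2% and 7.15% of all genes. Of the 6, 1, Egr2, was at least 1.5-fold above eGFP 6 in every library, against 1.79% of all genes. Egr2, an anergy factor, stood at 14.0, 46.6 and 18.7 CPM against 0 and 8.01 CPM, a log2 fold change of 2.68 ± 1.55 (SE), or 1.70 with eGFP 6 alone. Dgka, a kinase that removes diacylglycerol in anergic cells, stood at 396, 303 and 273 CPM against 115 and 268 CPM. Every library was above the controls, yet CA-RIT NFAT1 9 only just so, and its log2 fold change with eGFP 6 alone was 0.22. Rcan1, a calcineurin inhibitor that NFAT induces, stood at 14.2, 2.52 and 5.82 CPM against 0 and 12.1 CPM, and these overlapped.

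Of 21 AP-1 and early response genes, 2 lay above both controls (Dusp2 and Dusp5) and 1 below (Gem), against 14.2% and 7.15% of all genes. The list median was -0.07 with both controls and 0.27 with eGFP 6 alone. Dusp5, a phosphatase of nuclear ERK, stood at 378, 632 and 313 CPM against 191 and 155 CPM, a log2 fold change of 1.23 ± 0.34 (SE), or 1.48 with eGFP 6 alone. Dusp2, a related phosphatase, was at 1.17 and 1.81. Fos stood at 486, 431 and 176 CPM against 380 and 912 CPM, and Jun at 663, 133 and 170 CPM against 203 and 789 CPM. Both overlapped, and in both eGFP 6 was the highest of the 5.

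In the T cell receptor list 3 of 30 lay above (Ptpn6, Cd5 and Cd6) and 4 below (Cd247, Cd8a, Lat and Tespa1). The shares of all genes were 14.2% and 7.15%. Ptpn6, the phosphatase SHP-1 that damps receptor signals, stood at 219, 284 and 257 CPM against 168 and 150 CPM, a log2 fold change of 0.55 ± 0.23 (SE), or 0.72 with eGFP 6 alone. Lat, the adaptor of the receptor, was at -0.61 ± 0.24 (SE), or -0.42. Of 16 NF-kB genes, 1 lay above (Nfkb1) and 1 below (Bcl3), against the same shares of all genes. Nfkb1 stood at 63.4, 59.1 and 69.4 CPM against 41.2 and 40.5 CPM. Bcl3, a nuclear IkB protein, was at -0.95 ± 0.41 (SE), or -0.87 with eGFP 6 alone.

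**Figure D5:**
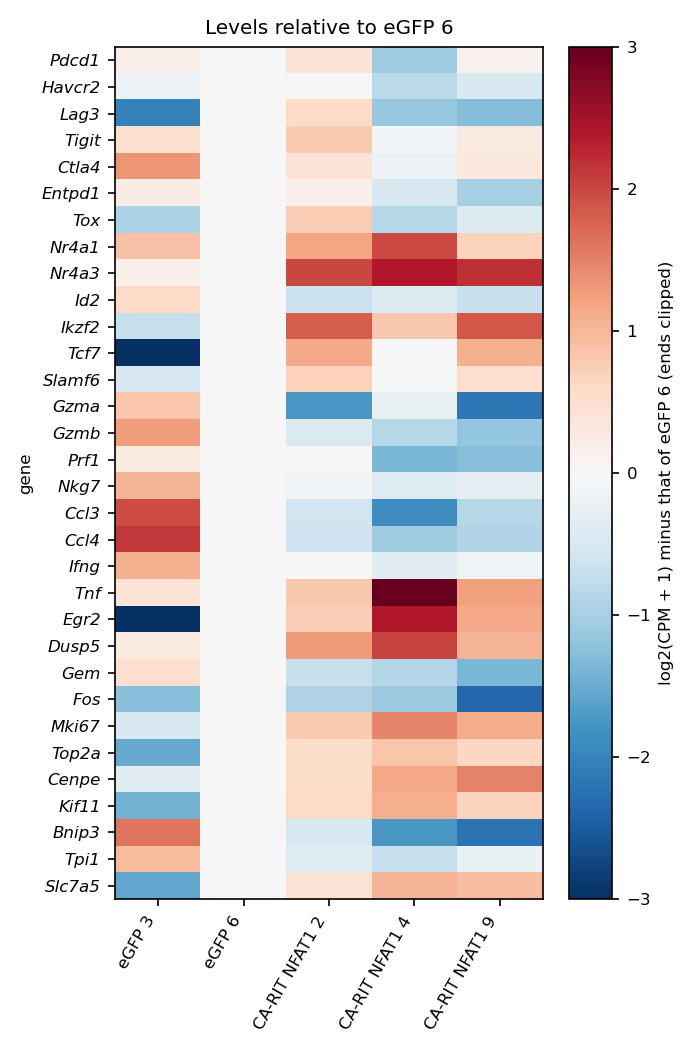
Level of 32 genes of the lists in each library as log2(CPM + 1) minus that of eGFP 6 (colour, with ends clipped at 3 and -3). Nr4a3, Dusp5, Tnf and Mki67 are above eGFP 6 in all 3 CA-RIT NFAT1 libraries and Gzmb, Ccl3, Ccl4 and Bnip3 below, while the inhibitory receptors differ among those 3 libraries.

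Cell cycle genes had the highest median of the 21 lists with both controls, 0.63 over 40 members, and 37 had a positive fold change. With eGFP 6 alone the median was 0.31, and 0.34 after removal of the length trend. All 40 had at least 5 CPM, and 17 (against 14.2% of all genes) lay above both controls and 0 below. The 17 were Mki67, Top2a, Kif11, Ccnb1, Cdc20, Bub1, Bub1b, Aurka, Aurkb, Plk1, Cenpe, Cenpf, Ube2c, Tpx2, Ncapg, Foxm1 and Mybl2, known for mitosis or for driving its genes. This grouping was noticed after the values had been seen. Their log2 fold changes ran from 0.40 to 1.90 with both controls and from 0.30 to 1.16 with eGFP 6 alone. At least 1.5-fold above eGFP 6 in every library were 4 of them (Mki67, Kif11, Cenpf and Foxm1), against 1.79% of all genes.

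Mki67, the proliferation antigen Ki-67, stood at 175, 283 and 221 CPM against 72.9 and 101 CPM. Its log2 fold change was 1.27 ± 0.27 (SE), or 1.13 with eGFP 6 alone. Cenpe, a kinetochore motor, stood at 58.3, 88.6 and 112 CPM against 31.1 and 39.3 CPM, with 1.19 ± 0.33 (SE) and 1.10. Ube2c, the ubiquitin-conjugating enzyme of the anaphase-promoting complex and a short transcript, was at 0.80 and 0.96. These 3 changed little with the choice of control. After removal of the length trend, Mki67, of 9341 bases, was at 0.70 with both controls and 0.83 with eGFP 6 alone. Cenpe, of 7520 bases, was then at 0.62 and 0.84.

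Top2a, the topoisomerase of chromosome condensation, stood at 348, 426 and 365 CPM against 82.7 and 237 CPM, with 1.15 ± 0.37 (SE) and 0.64. Kif11, the spindle motor, stood at 184, 258 and 194 CPM against 44.7 and 122 CPM, with 1.26 ± 0.39 (SE) and 0.77. Aspm, of the spindle poles and outside the list, stood at 17.7, 42.5 and 23.0 CPM against 2.44 and 7.85 CPM. In each of these eGFP 3 was the lowest library. Of a pair of replication genes picked after their values were seen, Mcm2, of the replicative helicase, stood at 358, 468 and 464 CPM against 167 and 387 CPM, and Pcna, the polymerase clamp, at 274, 449 and 524 CPM against 359 and 382 CPM. Both overlapped with eGFP 6, and no difference between replication and mitosis genes was tested.

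Glycolysis and hypoxia genes ran the other way. Their median was -0.24 over 35 members with both controls and -0.28 with eGFP 6 alone, and with eGFP 6 alone after removal of the length trend -0.27. Of 31 with at least 5 CPM, 10 lay below both controls (Bnip3, Tpi1, Eno1, Aldoa, Pkm, Pfkl, Slc2a1, Slc16a3, Ero1l and Ankrd37), against 7.15% of all genes, and 0 lay above. Their log2 fold changes ran from -2.53 to -0.42, and from -1.39 to -0.28 with eGFP 6 alone. Only Ankrd37 was at least 1.5-fold below eGFP 6 in every library, against 0.462% of all genes. Bnip3, a mitophagy receptor induced by hypoxia, stood at 33.3, 13.2 and 9.22 CPM against 143 and 46.4 CPM. It had the most negative value of the 10, -2.53 ± 0.66 (SE), or -1.39 with eGFP 6 alone. Tpi1, triosephosphate isomerase, stood at 622, 497 and 698 CPM against 1563 and 805 CPM, with -1.11 ± 0.38 (SE) and -0.46. Slc2a1, the glucose transporter GLUT1, stood at 125, 119 and 126 CPM against 205 and 179 CPM, with little spread within either group. Slc16a3, the lactate exporter, stood at 69.5, 38.8 and 42.5 CPM against 89.9 and 90.2 CPM. The other members with at least 5 CPM overlapped, and Hif1a, the hypoxia factor itself, was at -0.03, or -0.28 with eGFP 6 alone.

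Of 25 genes of the unfolded protein and amino acid response, 3 lay above (Slc7a5, Sesn2 and Dnajb9) and 1 below (Xbp1). The shares of all genes were 14.2% and 7.15%. Slc7a5, a transporter of large neutral amino acids, stood at 101, 152 and 143 CPM against 24.8 and 74.7 CPM, with 1.32 ± 0.43 (SE) and 0.79. Of 34 interferon response genes, 2 lay above (Rsad2 and Ifih1) and 2 below (Ly6a and Rtp4), against the same shares of all genes. Their median was -0.26, or -0.10 with eGFP 6 alone. Rsad2, the antiviral enzyme viperin, stood at 16.8, 12.8 and 11.6 CPM against 3.48 and 0.850 CPM. Cholesterol and fatty acid synthesis genes had a median of 0.28 over 24 members and 0.34 with eGFP 6 alone. Of 23, 2 lay above both controls (Sqle and Srebf2) and 0 below, against the same shares of all genes.

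Of 49 nuclear respiratory chain genes, 1 (Sdha) lay above and 3 below (Uqcrh, Atp5h and Atp5k), against 14.2% and 7.15% of all genes. Of the 13 genes of the mitochondrial genome, 0 lay above or below. Of 21 survival and death genes, 3 lay above (Bak1 and Xiap among them) and 5 below (Bax, Bad, Pmaip1, Fasl and Cflar), against the same shares. Their median was -0.17, or -0.13 with eGFP 6 alone.

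Against 14.2% and 7.15% of all genes, 3 of 21 homing and chemokine receptor genes lay above (Itgb1, Itga4 and Cxcr4) and 1 below. That gene, Cxcr6, a receptor that holds CD8 T cells in tissue and tumours, stood at 260, 160 and 189 CPM against 648 and 325 CPM, with -1.41 ± 0.40 (SE), or -0.73 with eGFP 6 alone. Itgb1, the beta-1 integrin, stood at 374, 437 and 354 CPM against 93.2 and 279 CPM. Of 21 cytokine receptors and their inhibitors, 0 lay above both controls and 1, Il21r, lay below, against the same shares. Il21r stood at 206, 167 and 127 CPM against 324 and 241 CPM. Of 11 osmotic stress targets, 2 lay above both controls (Slc38a2 and Osgin2) and 1 below, against the same shares. The latter, S100a4, a calcium-binding protein of motile cells, was at -1.10 ± 0.33 (SE), or -0.67 with eGFP 6 alone. H2-Ab1, an MHC class II gene of antigen-presenting cells, stood at 67.0, 46.0 and 45.5 CPM against 454 and 90.3 CPM, so both controls were above every CA-RIT NFAT1 library. It is one of the dendritic cell markers summed above, and related markers of that list overlapped eGFP 6 or lay above it. H2-Aa stood at 9.36, 7.32 and 5.85 CPM against 190 and 7.12 CPM. H2-Eb1 stood at 8.85, 6.22 and 4.65 CPM against 151 and 8.17 CPM. Cd74 stood at 66.3, 54.7 and 90.6 CPM against 565 and 52.9 CPM. With eGFP 6 alone the log2 fold change was -0.82 for H2-Ab1, 0.03 for H2-Aa, -0.37 for H2-Eb1 and 0.37 for Cd74.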

How the data were processed

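RNA of sorted CD8 T cells was sequenced from libraries of a Clontech kit, per the labels' protocols. The deposited estimated counts and TPM were made per transcript by the authors with Salmon 0.14.1, per the submitters' processing notes, which name GRCm38.p6 and mm10. The deposited effective length, another quantity, served for length offsets and trends. No source used here gives the trimming or Salmon's options. Of 140919 transcripts, 140045 matched GENCODE M21, with 99.9% of lengths identical, and 874 (at most 0.276% of a library's reads) were left out. Estimated reads were summed over 54408 genes and rounded. A duplicated symbol stayed with the gene ID of most reads. CPM are per 1 M reads on genes, and log2 levels used a pseudocount of 1. The libraries compared held 24.8 to 36.6 M reads.

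The test was the edgeR 4.0.16 quasi-likelihood test (R 4.3.3) with TMM and default filtering over 8 libraries, where the 3 NFAT5 libraries lend their spread. The biological coefficient of variation was 0.725. Fits with eGFP 6 alone drop eGFP 3. Standard errors are those implied by fold change and test. Separation needed a mean of 5 CPM. Alternatives were DESeq2 1.42.0, limma 3.58.1 voom, other scalings, filters and samples, length offsets, each library left out, and, chosen after seeing the data, removal of a lowess length trend (span 0.3) and a fit of eGFP 6 with CA-RIT NFAT1 alone. On simulated counts with the real dispersion of this comparison (13829 genes), edgeR recovered 0%, 36%, 80% and 94% of genes changed by 1, 2, 4 and 6 on the log2 scale. With the same libraries and a dispersion of 0.05 (13919 genes) it recovered 48%, 100%, 100% and 100%.

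The members and lists were chosen with earlier results of these data known. Named genes were Nfatc2 and Nfat5, in each direction the 10 coding genes of smallest p that lay beyond both controls and 1.5-fold beyond eGFP 6, up to 4 members of smallest p from each list, and a set by name. Other genes named in counts, and Dusp2, Ube2c, Mcm2, Pcna, Slc2a1 and Slc16a3, were chosen after their values were seen. The values of 1 gene counted in these lists are not reported here.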

Additional observations from a re-analysis of the deposited data

Results flagged for a closer look

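Data left out of the comparison held signal of other cells. In CA-RIT NFAT1 10 the summed mast cell and P511 markers came to 5193 CPM, above the 60.6 and 263 CPM of eGFP 6 and eGFP 3, while its summed T cell markers came to 102 CPM. The 3 CA-RIT NFAT1 libraries compared held 85.6 to 223 CPM of the same mast cell and P511 markers.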

How the results depend on the processing

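The count of called genes was 0 in each direction in the main edgeR test and under every other scaling, filter and choice of samples run, except that DESeq2 called 82 higher and 17 lower and that leaving out single libraries gave 0 to 2553 higher and 0 to 858 lower. Both upper ends came without eGFP replicate 6, when eGFP 3 is the only control and is assumed to vary like the other groups. That fit moved the median over all genes from 0.10 to 0.49 on the log2 scale. Without eGFP replicate 3 the count was 0. Measured against eGFP 6 alone, 2130 genes lay above and 1588 below, against 1318 and 666 with both controls. With 1 control, more genes lie to one side by order alone, so these counts are not evidence of a difference. The Nfatc2 difference on the log2(CPM + 1) scale was 1.86 and ran from 0.22 to 3.50 as single libraries were left out.

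Of 131 genes named, 113 kept their direction throughout. With eGFP 6 and CA-RIT NFAT1 alone the log2 fold change turned to -0.21 for Nfat5, -0.41 for Lag3, 0.33 for Tigit, 0.15 for Ctla4, -0.056 for Tox, -0.22 for Eomes and -0.75 for Rcan1. The setting with all 10 libraries adds eGFP 7, of 51112 estimated reads, and CA-RIT NFAT1 10. The latter held 102 CPM of T cell markers and 1139 CPM of H2-Ab1. With all 10 libraries the log2 fold change turned to -0.080 for Lag3, -0.029 for Tox, -0.22 for Eomes and 0.068 for Bnip3. It also turned to 0.16 for H2-Ab1, 0.18 for Pkm, 0.48 for Tespa1, 0.029 for Pfkl, 0.47 for Ero1l and -0.00460 for Ppp3r1. With length offsets it was 0.027 for Tigit and 0.0035 for Hif1a. It was -0.040 for Tox with voom and -0.00698 for Pcna with upper-quartile scaling. With single libraries left out the ranges crossed 0 for Nfat5 (-0.22 to 2.26), Pdcd1 (-0.56 to 0.013), Lag3 (-0.58 to 1.51), Tigit (-0.29 to 0.32), Ctla4 (-1.32 to 0.14), Tox (-0.29 to 0.77), Eomes (-0.23 to 0.64), Rcan1 (-0.76 to 10.61), Jun (-1.76 to 0.46), Hif1a (-0.28 to 0.32) and Pcna (-0.15 to 0.31). The cause was not tested. No paired analysis was possible because the library numbers run through the series and none recurs in another group.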

Other observations

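Set against the NFAT5 libraries, which share the eGFP controls with the comparison above, CA-RIT NFAT1 had no gene past the test. The edgeR test of CA-RIT NFAT1 against NFAT5 called 0 of 14483 genes (0%), with 114 higher and 49 lower at an unadjusted p under 0.05. Nfat5 itself, at 87.0, 81.5 and 48.0 CPM with its own vector, had a log2 fold change of -3.58 ± 0.72 (SE) and an edgeR adjusted p of 1.00, and its 3.01 to 10.7 CPM with CA-RIT NFAT1 did not overlap these values.

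Gm156, with 38.8, 11.0 and 24.3 CPM in the CA-RIT NFAT1 libraries, stood at 1.49, 0 and 0 CPM in NFAT5 1, 5 and 8, a log2 fold change of 5.60 ± 1.73 (SE) with an edgeR adjusted p of 1.00. Ptpn6, the SHP-1 phosphatase, was higher in all 3 CA-RIT NFAT1 libraries, at 219 to 284 CPM, than in the NFAT5 libraries, at 144, 174 and 137 CPM, with 0.73 ± 0.20 (SE). Of the other genes that led the comparison with eGFP, in NFAT5 1, 5 and 8 Nr4a3 stood at 38.9, 18.8 and 29.0 CPM, Mki67 at 214, 200 and 180 CPM, and Lyz2 at 12.6, 15.9 and 67.4 CPM. Outside the leading genes, in the same libraries Gzmb stood at 3238, 1800 and 1927 CPM, Egr2 at 24.9, 58.6 and 63.2 CPM, and Dusp5 at 476, 583 and 598 CPM. For each of the genes from Nr4a3 to Dusp5 the NFAT5 libraries lay on the same side of both eGFP libraries as those with CA-RIT NFAT1. Other genes did not follow. Lsr stood at 7.14, 5.06 and 13.2 CPM in NFAT5 1, 5 and 8 against 10.2 CPM in eGFP 6, and Hemk1 at 9.47, 8.63 and 6.42 CPM against 7.89 CPM. Gzma stood there at 755, 1553 and 1474 CPM against 1200 CPM.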
